A study of Homo sapiens with 2 samples.

Results

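Small nuclear RNAs (snRNAs) were measured in LPS-stimulated and control THP-1 cells with 1 microarray per condition. The snRNA probes were the 141 non-control probes of 75149 whose name starts with RNA and holds the class label snRNA. THP-1 cells come from a human monocytic leukaemia and are widely used as a model of monocytes and macrophages, and LPS is a component of the outer membrane of Gram-negative bacteria that activates such cells through Toll-like receptor signalling. The control cells (Con) received DMSO and the other cells (LPS) were LPS-stimulated, both for 48 h according to the sample labels, and the LPS dose is not given in the sources used here. With no second array for either condition, every difference below is a difference between these 2 arrays, without a replicate check or a p-value. The 2 arrays shared a slide and a scan, and their place on that slide and the condition cannot be told apart.

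snRNAs are short, non-coding RNAs of the nucleus that work as RNA-protein particles. U1, U2, U4, U5 and U6 are the RNA parts of the major spliceosome, which removes most introns, while U11, U12, U4atac and U6atac serve the minor spliceosome. U7 takes part in 3′ end processing of replication-dependent histone mRNAs, and 7SK holds back the transcription elongation factor P-TEFb. Most are made by RNA polymerase II as short transcripts without a poly(A) tail, whereas U6, U6atac and 7SK are made by RNA polymerase III. They belong to families with many related gene copies and pseudogenes, so that probes for different members can bind the same RNA. RNA was amplified from total RNA with both oligo(dT) and oligo(dN) primers per the labels, so priming was not limited to poly(A) tails.

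No name, gene or sequence beyond the class label was paired with these probes in the sources used here, so it is not known which snRNA each of them measured, and neither the class label nor the THP-1 and LPS labels could be checked against marker genes. Each probe name ends in a serial number and a last number, as in RNA144362 (snRNA_315_158). The last number was read as the length of the RNA in bases, since the 2 mitochondrial rRNA probes named in the same way end in 954 and 1559, the RefSeq lengths of RNR1 and RNR2. That reading is not stated in the files. The last number ran from 60 to 203 in 88 snRNA probes and from 279 to 370 in the other 53, with none between 203 and 279. The RefSeq length of U6atac (126 bases) was shared by 3 probes, those of U6 (107) and U12 (150) by 1 each, and those of U1 (164), U2 (188 and 191), U4 (145), U11 (135), U4atac (130) and 7SK (332) by none. An equal length does not identify an RNA.

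Most snRNA probes with a clear signal differed little between the arrays, and the probes that differed by 2-fold were all lower on the LPS array. Detection required that most spots of a probe were well above background, and 102 of the 141 (72.3%, against 81.8% of all probes) were detected on both arrays. A further 19 were detected on the Con array only, 2 on the LPS array only and 18 on neither. The Con array detected 121 snRNA probes and 68945 of all 75149 probes, and the LPS array 104 and 61912. Fewer probes in all were thus detected on the LPS array. After each array was scaled to its 75th percentile, 31 of the 123 probes detected on at least 1 array were at least 2-fold lower on the LPS array (25.2%, against 16.5% of all probes) and 0 were at least 2-fold higher (against 0.783% of all probes). Of these 31 differences, 14 were measured on both arrays and 17 are lower bounds, because the probe was not well above background on the LPS array. The counts depend on the processing, with 6 lower and 0 higher after normexp background correction, 11 lower and 5 higher after quantile normalization and 11 lower and 2 higher after cyclic loess. Of all 69392 probes detected on at least 1 array, these settings called 1.89%, 5.20% and 6.0% lower. They called 312, 2827 and 1648 of them higher.

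The count of lower probes is given against signal here, since dim probes other than snRNA probes were also often lower on the LPS array. snRNA probes were dim, with a median signal (background-subtracted fluorescence intensity, before scaling) of 92.1 on the Con array and 78.5 on the LPS array, and 26.2% of them had a mean signal under 16, against 16.3% of the other probes. Among probes of like signal (other probes within 0.5 log2 units of each snRNA probe's mean signal), an average of 19.0% were called lower, which adds up to 26.8 of the 141 snRNA probes, beside the 31 observed. Under a mean signal of 16, 15 of 37 snRNA probes were lower (40.5%, against 43.9% of the other probes), and from 16 to 64, 10 of 25 (40%, against 30.5%). From 64 to 256, 6 of 41 were lower (14.6%, against 4.89%), and those are RNA144362, RNA144367, RNA144168, RNA144125, RNA145149 and RNA144151. None of the 38 probes above 256 was called, where 1.93% (256 to 1024) and 1.72% (1024 and over) of the other probes were lower. These signal ranges were chosen after the values were seen, and the counts in each are small.

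**Figure D1:**
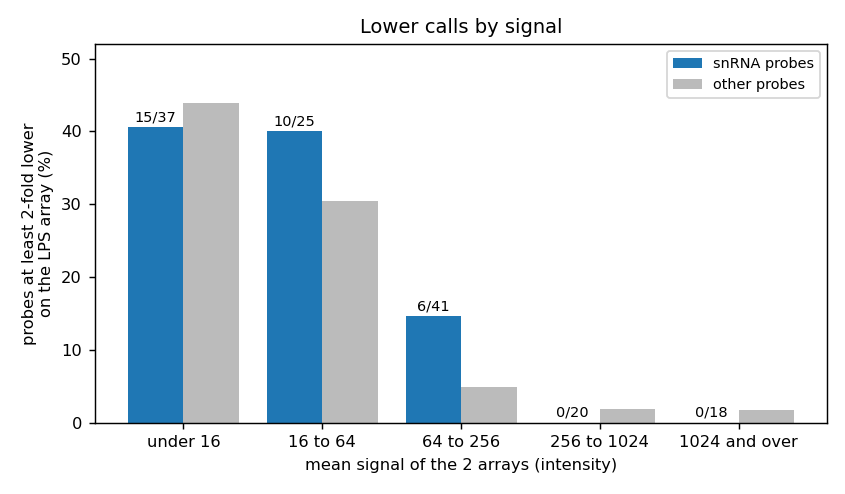
Percentage of probes at least 2-fold lower on the LPS array, by the mean signal of the 2 arrays, for snRNA probes (blue, with the number lower over the number of probes) and all other probes (grey). Both shares are highest among dim probes, and the snRNA share exceeds the other in the ranges 16 to 64 (40% against 30.5%) and 64 to 256 (14.6% against 4.89%).

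For the 102 probes detected on both arrays, the median difference (LPS minus Con, scaled log2 signal) was −0.10, beside −0.05 for all probes detected on both. The middle 50% of these snRNA probes lay between −0.51 and 0.07, and the whole range was −2.39 to 0.86. When the median difference of probes of like signal was subtracted from each, the median became −0.04, and 63 of the 102 lay within 0.25, 79 within 0.5 and 95 within 1 log2 unit of probes of like signal. The remaining 7 were at least 1 log2 unit below (6.86%, against 3.9% of all probes), and 0 were at least 1 above (against 1.99%). These shares of all probes are not matched for signal, and no share of all probes is given for the limits of 0.25 and 0.5. snRNA probes were dimmer (median mean signal of 84.5, against 138 for all probes), and differences spread more widely among dim probes. Thus the centre of the group lay close to that of probes of like signal, and its tail extended further down than up. The count of 0 above depends on how like signal is taken. With the signal of the Con array alone, RNA144504 and RNA144536 were 1.04 and 1.03 log2 units above.

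**Figure D2:**
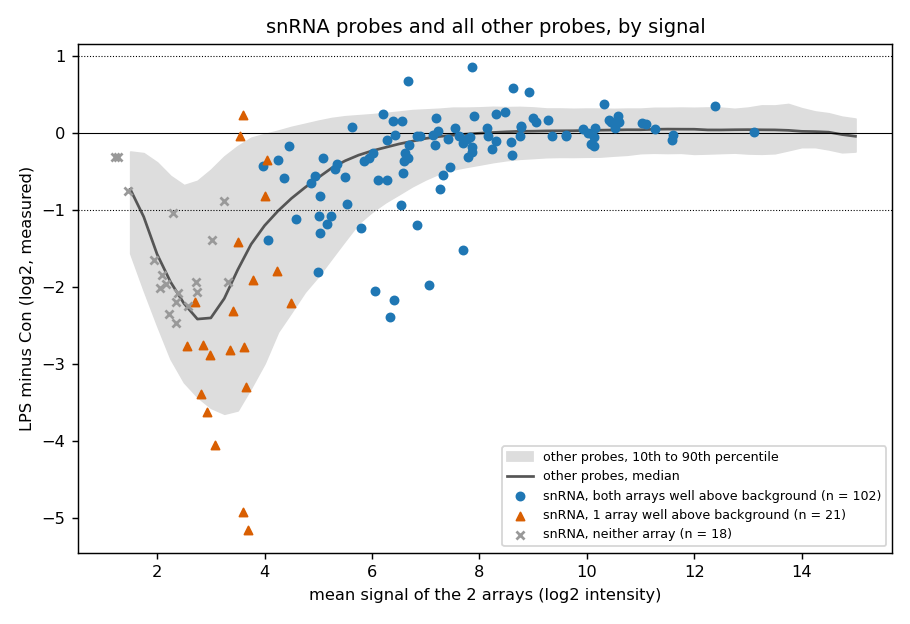
Difference between the arrays (LPS minus Con, scaled log2 signal) against the mean signal of the 2 arrays (log2 intensity) for the 141 snRNA probes, with the running median (line) and the 10th to 90th percentiles (band) of all other probes; dotted lines mark 2-fold. Other probes also turn downward at low signal, most snRNA probes detected on both arrays (circles) follow them, and 5 snRNA probes of medium signal lie far below the band at −2.39 to −1.52.

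Among the 102 probes detected on both arrays, the largest falls beyond probes of like signal were at 5 probes of medium signal. RNA144362 (last number 158) had a signal of 176 on the Con array (spots of 179 and 173) and 36.9 on the LPS array (spots of 39.5 and 34.5). It was 5.24-fold lower after scaling, a difference of −2.39 log2 units and −2.21 beyond probes of like signal, with an error of 0.10 from the spots alone. RNA144367 (157) had a signal of 171 on the Con array (178 and 164) and 41.7 on the LPS array (49.3 and 35.3), a difference of −2.17, or −2.01 beyond like signal. For both probes every LPS spot was far below every Con spot.

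RNA144168 (203) read 267, 280 and 213 in its 3 Con spots and 71.9, 60.8 and 79.5 in its 3 LPS spots, a difference of −1.97, or −1.91 beyond like signal. RNA144125 (312) read 126, 137 and 125 on the Con array and 33.4, 32.9 and 36.6 on the LPS array, for a difference of −2.05, or −1.83 beyond like signal. RNA145149, whose last number of 107 equals the RefSeq length of U6, read 346 and 322 on the Con array and 127 and 128 on the LPS array, for a difference of −1.52, or −1.51 beyond like signal. The spots of these 3 probes did not overlap between the arrays either. Since the 5 were picked for large falls, the separation of their spots (repeats within 1 array) is no independent check. The share of all probes with separated spots is not given here, so the separation has no comparison. All 5 probes lay below the 2nd percentile of probes of like signal, at 1.12, 1.39, 1.12, 1.83 and 1.39 in the order given, which is a description of their place among probes and not a test. With like signal taken from the Con array alone, RNA144125 was at the 2.38th percentile and the others stayed below the 2nd. Over 8 alternative backgrounds, scalings and spot choices they remained at least 2-fold lower, with ranges of −2.39 to −1.41 for RNA144362, −2.17 to −1.12 for RNA144367, −1.97 to −1.27 for RNA144168, −2.05 to −1.13 for RNA144125 and −1.53 to −1.22 for RNA145149. Beyond like signal, RNA144367 and RNA144125 came to −0.99 and −0.97 after normexp background correction, just short of 1 log2 unit. The other 3 stayed at −1.18 or lower over these alternatives. The last numbers of the 5 probes were spread over both length ranges.

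A further 2 probes, RNA144107 (317; 57.2 on the Con array and 17.9 on the LPS array, −1.80, or −1.23 beyond like signal) and RNA144151 (301; 165 and 79.2, −1.20, or −1.10), were also at least 1 log2 unit below probes of like signal. The other 7 probes that were lower and detected on both arrays were within 1 log2 unit of probes of like signal, from RNA144391 (81.1 and 37.7, −1.24, or −0.96 beyond like signal) to RNA144145 (25.8 and 10.8, −1.39, or −0.24).

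No snRNA probe was 2-fold higher, and the nearest was RNA145308 (105), with spots of 155 and 176 on the Con array and 318 and 337 on the LPS array. Its difference was 0.86, or 0.87 beyond like signal, at the 98.5th percentile of probes of like signal. RNA144049 (370, the highest last number of the group) read 61.2, 89.5 and 84.5 on the Con array and 147, 125 and 135 on the LPS array, for a difference of 0.67, or 0.79 beyond like signal. The spots of both did not overlap between the arrays, but both were picked for large rises, so this is no independent check. Here too the share of all probes with separated spots is not given. The other 3 of the 5 largest rises relative to like signal were dim probes that were slightly lower on the LPS array, while other probes as dim were lower still. These were RNA144536 (17.3 on the Con array and 14.1 on the LPS array, −0.43), RNA144504 (22.3 and 21.7, −0.17) and RNA144080 (20.5 and 17.7, −0.35). Under quantile normalization these 3 turned to 1.15, 1.04 and 1.01, so their direction depends on the scaling.

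The brightest snRNA probes differed little between the arrays, where brightness also depends on how well a probe binds and is no measure of abundance. RNA144148 (302) read 7989, 8432 and 8780 on the Con array and 8726, 9620 and 9449 on the LPS array, for a difference of 0.01 after scaling. RNA144090 (323) was the exception among the 5 brightest, with spots of 4591, 4392 and 4656 on the Con array and 6517, 6287 and 6192 on the LPS array, for a difference of 0.34, or 0.30 beyond like signal, at the 90.4th percentile. RNA144430 (141) went from 2981 to 3224 (−0.02), RNA144508 (126, the length of U6atac) from 3031 to 3109 (−0.10) and RNA144487 (127) from 2302 to 2619 (0.05). Over the 17 probes whose signals both reached 1000, the median difference was 0.07 with a range of −0.17 to 0.38, and 0 were called. Among the 60 probes whose signals both reached 100, 1 (RNA145149) was called lower and 48 were within 0.25 log2 units of probes of like signal. Since the LPS array must also reach 100 here, probes that fell below that level are left out of these 60. The shares of all probes at the same cutoffs of 1000 and 100 are not given here, so these counts have no comparison.

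**Figure D3:**
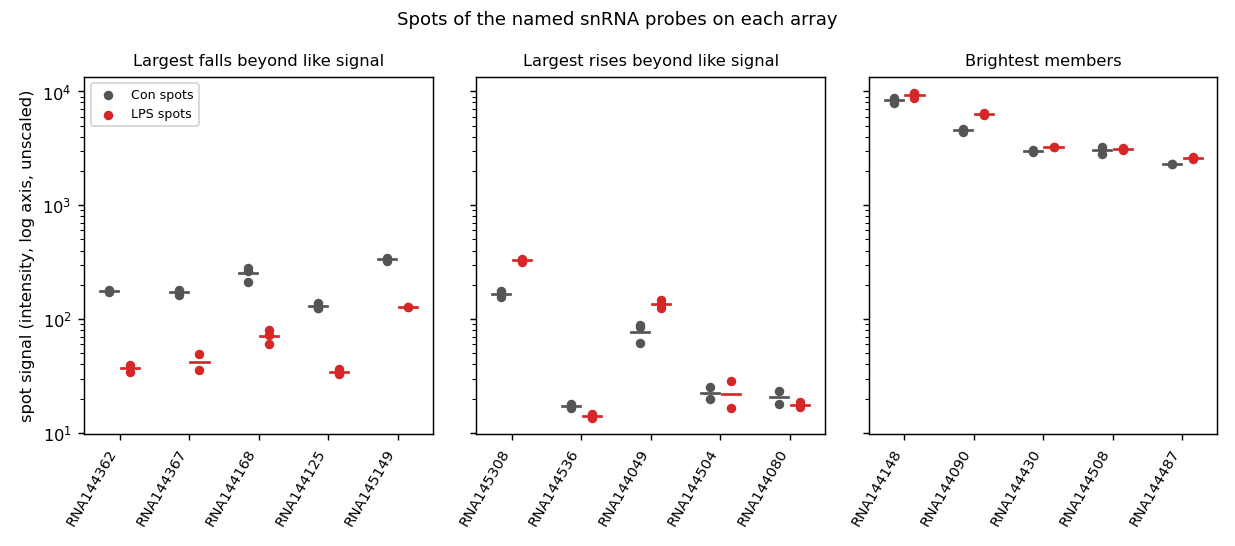
Signal of every kept spot (points, intensity on a log axis, before scaling) and their geometric mean (bars) on the Con array (grey) and the LPS array (red), for the 5 snRNA probes with the largest falls and the 5 with the largest rises beyond probes of like signal among those detected on both arrays, and for the 5 brightest. The spots of the 5 falls are separated between the arrays, RNA145308 and RNA144049 are the separated rises, and of the brightest RNA144090 stands apart most, at 4545 and 6331. The falls and rises were picked by their differences, so their separation is no independent check, and the share of all probes with separated spots is not given.

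The 17 lower bounds came from the 19 probes detected on the Con array only, whose Con signals ran from 13.3 to 73.9 and whose LPS signals ran from 2.15 to 15.3. RNA144140 (305) had spots of 87.4 and 62.4 on the Con array and of 2.22 and 2.33 on the LPS array, which was not well above background there, and was at least 11.2-fold lower. RNA144206 (189) had spots of 67.2 and 60.1 on the Con array and of 2.41 and 2.17 on the LPS array, and was at least 9.64-fold lower. These 2 were the largest bounds. The bounds of the other 15 ran from 5.75-fold (snRNA_183_178) to 2.01-fold (snRNA_105_300), and the 2 probes that were not called had bounds of 1.77-fold (snRNA_200_168) and 1.28-fold (snRNA_400_139). A bound of this kind sets the Con signal against the lowest detected signal of the LPS array or the probe's own value, whichever is higher. That lowest signal was 7.23, while the 1st percentile of detected signals on the LPS array was 13.0. A bound therefore holds only for this choice, and a higher limit would give smaller bounds and could leave fewer calls.

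In the other direction, RNA144520 (123; 10.7 and 13.8) and RNA144101 (320; 11.3 and 12.1) were detected on the LPS array only. RNA144520 was at least 1.18-fold higher on the LPS array, and for RNA144101 no bound above 1-fold was left. The 18 probes detected on neither array had signals of 2.48 to 18.7 on the Con array and 2.15 to 7.28 on the LPS array, and no fold is given for them.

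A last number was shared by at least 3 snRNA probes in 8 cases, with 36 probes in all, and probes that shared one did not all move together. The last number with the most probes was 127, with 13, of which 12 were detected on both arrays. In the 10 of them whose signals both reached 100 (311 to 2302 on the Con array), the differences ran from −0.17 to 0.27 with a median of 0.13, and 8 were above 0. The 2 dim ones, RNA144488 (49.1 on the Con array and 21.8 on the LPS array) and RNA144486 (52.1 and 27.1), were called lower, and the remaining one was detected on neither array. Over the 13 probes, the shares of like signal add up to 1.21 lower.

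Of the 4 probes that end in 133, RNA144462 (194 and 157, −0.45), RNA144465 (184 and 138, −0.55) and RNA144463 (190 and 126, −0.73) were lower on the LPS array by less than 2-fold and RNA144460 was higher (278 and 361, 0.25). The 3 probes that end in 69 lay between −0.15 and 0.07, at signals of 1087 to 1374 on the Con array, and none of the 3 that end in 126 was called either. For 69 and 126 the shares of like signal add up to 0.06 and 0.54 lower. Of the 3 that end in 189, RNA144207 went from 111 to 119 (−0.03), RNA144206 was at least 9.64-fold lower and RNA144208 was detected on neither array. Of the probes detected on at least 1 array, 1 of 2 that end in 131, 2 of 2 that end in 303 and 0 of 3 that end in 320 were called lower. Over all 3, 3 and 4 probes with these last numbers, detected or not, the shares of like signal add up to 0.77, 1.77 and 0.81 lower. The counts of 1, 2 and 0 were near those of other probes as dim. RNA144356 and RNA144362, which share the last number 158, moved in opposite directions. RNA144356 went from 310 on the Con array to 507 on the LPS array (0.58) and RNA144362 fell by 2.39. That pair was picked after its values were seen, and whether probes of one last number share a target was not tested.

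The 2 length ranges gave like counts. In the range 60 to 203, 19 of 77 probes detected on at least 1 array were lower (24.7%, against 16.5% of all probes). The shares of like signal over all 88 probes of the range add up to 15.7. The median difference beyond like signal was −0.04 over 64 probes. In the range 279 to 370, 12 of 46 were lower (26.1%), beside 11.1 from the shares of like signal over all 53 probes. The median was also −0.04, over 38 probes. The probes at least 1 log2 unit below like signal were 4 in the shorter range and 3 in the longer.

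**Figure D4:**
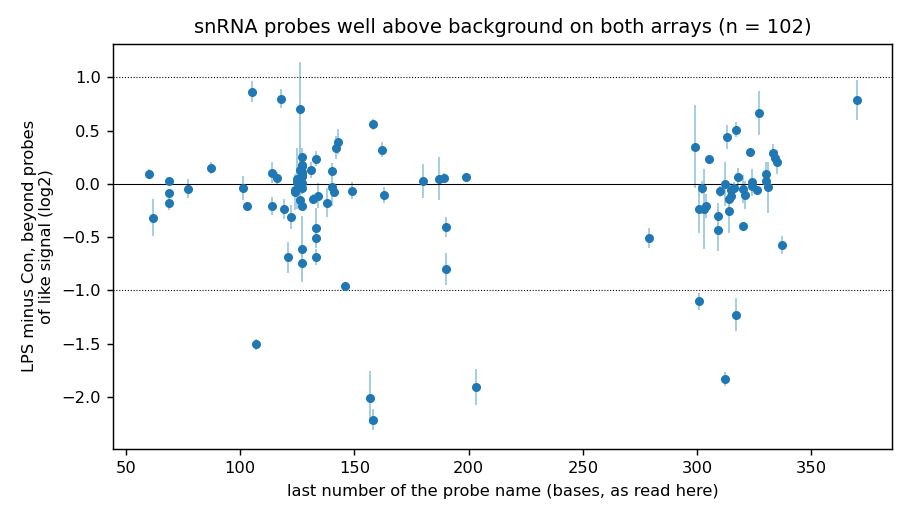
Difference between the arrays beyond probes of like signal (log2) against the last number of the probe name (read as bases) for the 102 snRNA probes detected on both arrays; vertical lines are the error from the spots of a probe alone and dotted lines mark 1 log2 unit. Probes on both sides of the gap between 203 and 279 centre near 0, and the 7 probes below −1 are spread over both.

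Other classes of short non-coding RNA on the arrays are given beside the snRNAs for scale. The 306 probes for snoRNAs and scaRNAs, most of which guide chemical modification of rRNA or snRNA, were brighter (median mean signal of 275, against 84.5 for snRNA probes), and 11.96% of those detected on at least 1 array were lower. Their median beyond like signal was −0.04, as for snRNA probes, and 6.60% of them were at least 1 log2 unit below like signal with 0 at least 1 above. For the 99 tRNA probes (median mean signal of 1974) these were 9.38% lower, −0.08 and 4.40%, also with 0 at least 1 above. Over all probes 2396 were at least 1 below and 1225 at least 1 above, so a tail that reached further down than up was not particular to snRNA probes. Among the 2227 probes with other RNA names it was not seen, with 17 below and 22 above. The 38141 probes whose names start with neither RNA nor A_ were nearest to snRNA probes in brightness (median mean signal of 74.0). Of those detected on at least 1 array, 21.3% were lower, and 4.12% of those detected on both were at least 1 log2 unit below like signal. No test of a difference between classes was possible.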

How the data were processed

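One-colour microarrays of THP-1 cells, 1 for Con and 1 for LPS, were grouped by the sample labels. The authors deposited, per array, the spot output of Agilent Feature Extraction 11.5.1.1, an intensity after background subtraction with no scaling between arrays, and flags of other kinds per spot (0 or 1), as well as a table of processed intensity values that holds 125 of the 141 snRNA probes.

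Spots with an outlier flag (1.71% of the Con and 1.93% of the LPS spots) were omitted, log2 intensities were averaged over the 2 or 3 spots of a probe, and each array's 75th percentile over 75149 probes (547 on the Con array and 600 on the LPS array) was subtracted, which lowers LPS minus Con by 0.13. Without this scaling, differences are higher by that amount. Detected means that most kept spots were well above background, and calls were made at 2-fold. Lower bounds used the lowest detected signal (9.23 for Con and 7.23 for LPS), which is not a detection limit. No saturated spots were found. The pooled SD between spots of snRNA probes was 0.14 on the Con array and 0.18 on the LPS array (log2), and the errors given cover spots alone. The number of arrays limits the precision, and no test was possible.

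Alternatives used limma 3.58.1 in R 4.3.3. The calculation was tested on simulated data, but no result of that test for dim probes or for lower bounds is given here. Named probes were the 5 brightest, the 5 largest rises and 5 largest falls beyond like signal, every probe called higher, and those detected on 1 array only by count and range where more than 5. Others were named after their values were seen. The members and lists were chosen with earlier results of these data known. Lists of snRNP genes, cell type markers and LPS response genes were not analysed here, since no table used here pairs probes with genes. RefSeq lengths were those of GRCh38.p14.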

Additional observations from a re-analysis of the deposited data

How the results depend on the processing

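The counts of lower and higher snRNA probes depended on the processing. Against 31 lower and 0 higher, normexp background correction gave 6 lower, quantile normalization 11 lower and 5 higher (RNA144080, RNA144101, RNA144504, RNA144520 and RNA144536), and cyclic loess 11 lower and 2 higher (RNA144101 and RNA144520), and the cause was not tested. Among all probes the normexp, quantile and loess settings called 1.89%, 5.20% and 6.0% lower, and 312, 2827 and 1648 of 69392 higher. Calls limited to probes detected on both arrays left 14 lower, a signal of at least 100 on the brighter array left 6, and thresholds of 3-fold and 4-fold left 18 and 9. The shares of all probes called lower under these 4 settings were 6.57%, 2.26%, 8.88% and 4.91%. A 1.5-fold threshold gave 39 lower (against 23.8% of all probes) and 2 higher (RNA144049 and RNA145308, against 1794 of 69392 probes). The remaining alternatives gave 27 to 45 lower, against 14.6% to 19.9% of all probes. The lower calls kept in all 6 background and scaling alternatives were 6, namely RNA144125, RNA144140, RNA144168, RNA144362, RNA144367 and RNA145149. The share of all probes kept in the same way is not given here, so this count has no comparison.

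The median difference ran from −0.32 (no filter on dim probes) to 0.03 (no scaling between arrays), so its sign depends on the scaling. The median beyond like signal ran from −0.09 to −0.02 over 13 alternatives, and the number detected on both arrays from 100 to 117 over 2. Low signal left no fold for the 18 probes detected on neither array and for RNA144101, and 17 of the lower calls were bounds. The comparison of snRNP genes was not run, since probes are not paired with genes here. No paired analysis was possible because there was 1 array per condition.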

Other observations

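The numbers in the names of the snRNA probes form a series in which a few probes carry the same kind of RNA name but no class label, and they are counted as no snRNA here. RNA144057 went from 1415 (Con) to 1770 (LPS), or 0.19 on the scaled log2 scale. RNA144114 (3.30 and 2.25) and RNA144136 (13.8 and 2.36) were detected on neither array.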
